A study of Homo sapiens with 18 samples.

Results

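The gradual gains described here were 2787 of 28518 genomic regions with DRIP-seq peaks in HCT116 cells, a human epithelial colorectal carcinoma line. They had no peak in untreated cells (NT), a peak in only 1 of the 2 replicates after 5 min of camptothecin (CPT), and a peak in both replicates after 60 min of CPT. DRIP-seq is used to map DNA-RNA hybrids: DNA cut with restriction enzymes is immunoprecipitated with the S9.6 antibody and sequenced. The regions were not filtered by the RNase H libraries. Besides NT, cells received CPT at 10 μM and were taken after 5 or after 60 min. There were 2 biological replicates of each of these 3 treatments, and every replicate gave a DRIP library, a library digested with RNase H before immunoprecipitation, and an input library. Of the 18 samples, the peak lists of the 6 DRIP and the 6 RNase H libraries were analysed, and the inputs served the authors as controls when peaks were called. Within each treatment, DRIP peaks that overlapped a peak of the other replicate by at least 1 bp were kept and joined. Joined intervals that overlapped between treatments made 1 region. Members were thus selected on the measured presence and absence of peaks in the 6 DRIP lists, and presence, width and rank of these peaks are given as a description with no test.

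An R-loop forms when RNA pairs with the template strand behind an elongating RNA polymerase and leaves the other DNA strand single. Topoisomerase I (Top1) relaxes the supercoils that transcription makes, by nicking and resealing 1 DNA strand, and CPT traps Top1 on the nicked DNA. RNase H degrades the RNA strand of a hybrid, and a peak that is lost on digestion is usually taken as hybrid signal.

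The lists differed in length between replicates. For NT, 5 min and 60 min in turn, the DRIP lists of replicate 1 held 30314, 33852 and 41668 peaks, and those of replicate 2 held 52967, 56543 and 72879. The RNase H lists held 473, 3439 and 5392 peaks in replicate 1 and 15790, 50353 and 67188 in replicate 2. Peaks were called in each library on its own, and the lists give no read counts, so the depth behind a peak is unknown from them. A missing peak is a call under the threshold in that library. Fold enrichment over input is therefore compared as a percentile within its own list.

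Most of the strongest gradual gains lay inside genes, and 150 bp around the summit of the strongest 60 min peak of replicate 2 are shown for the one in ONECUT2, as an example with more G runs than the median of such windows. This region had its 5 min peak in replicate 2. The window lay within the gene body and overlapped no exon of a protein-coding gene, at chr18:55123013-55123162 on the plus strand of GRCh37 (hg19). The letters are the strand of the gene's RNA, with runs of at least 3 G in capitals.
ONECUT2: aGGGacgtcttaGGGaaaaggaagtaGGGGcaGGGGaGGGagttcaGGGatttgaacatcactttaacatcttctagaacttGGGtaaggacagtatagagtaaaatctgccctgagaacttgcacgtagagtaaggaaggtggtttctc

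The ONECUT2 window held 7 G runs and a GC skew, (G − C)/(G + C), of 0.391. It was not typical: windows of gradual gains in 1 gene had a median of 2 G runs. The median GC skew of those regions over their whole width was 0.0297. At least 1 G run was present in 80.1% of the 2087 windows of gradual gains that lay in 1 protein-coding gene, against 84.5% over all regions with such a window, so G runs were not more frequent here.

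Gradual gains were an intermediate group among the regions gained at 60 min. A peak in both 60 min lists and in neither NT list was found at 8466 regions, 29.7% of all. Of these, 4160 (49.1%) had no peak at 5 min and are called late gains, 1519 (17.9%) had a peak in both replicates at 5 min and are called stable gains, and the 2787 gradual gains lay between them. Here these names rest on the presence of peaks only. The authors used late and stable gain for regions called by a differential test of normalised read counts, after a comparison with the RNase H libraries. Their groups are therefore other sets of regions. A peak in exactly 1 of the 2 lists of 5 min was also found at 8457 regions, 29.7% of the whole set. The 5 min peak came from replicate 2 in 2367 gradual gains (84.9%, 95% Wilson interval 83.6 to 86.2, for counting error only) and from replicate 1 in 420. Over all regions mixed at 5 min the peak was in replicate 1 in 13.6%, near the share of gradual gains. With the 6 DRIP lists limited to the 30314 peaks of the shortest list, 1587 gradual gains were left, of which 75.4% had the 5 min peak in replicate 2. The split between the replicates moves with the list lengths, and the part of list length in it was not tested further.

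**Figure D1:**
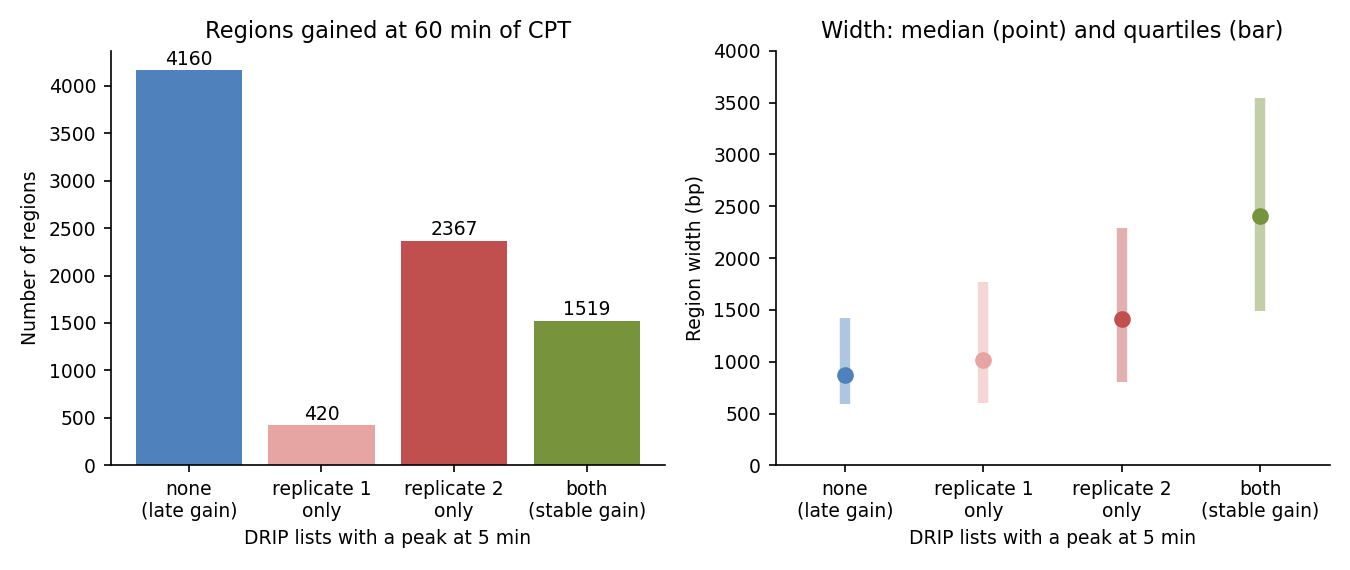
Regions gained at 60 min of CPT, by the DRIP lists with a peak at 5 min: number of regions (left, bars) and region width in bp (right, median as point and quartiles as bar). The 420 and 2367 gradual gains stand between 4160 late and 1519 stable gains, and their median widths of 1016.5 and 1412 bp lie between 876 and 2404 bp.

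In width, which comes from the same peaks that set the groups, the gradual gains lay between the other gains. The median width was 1363 bp (95% interval of the median 1295 to 1408), with a range of 274 to 7795 bp. Late gains had a median of 876 bp and stable gains of 2404 bp, while the no change regions, with a peak in all 6 DRIP lists, had 5787 bp. Regions with the 5 min peak in replicate 1 were narrower (1016.5 bp) than those with it in replicate 2 (1412 bp).

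The same order was seen in the ranks. The median fold enrichment of the strongest peak was 3.95 (5 min, replicate 1), 4.26 (5 min, replicate 2), 4.45 (60 min, replicate 1) and 5.54 (60 min, replicate 2). As percentiles within the lists these were 43.2, 58.9, 54.8 and 76.9. The 60 min values were 47.7 and 62.0 for late gains and 70.9 and 88.6 for stable gains, and at 5 min stable gains stood at 65.7 and 78.2. Gradual gains were weaker than stable gains in all 4 lists and stronger than late gains in both 60 min lists, in medians, with quartiles that overlapped widely. Width and rank come from the lists whose calls set the groups, so this order is no separate support for them.

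**Figure D2:**
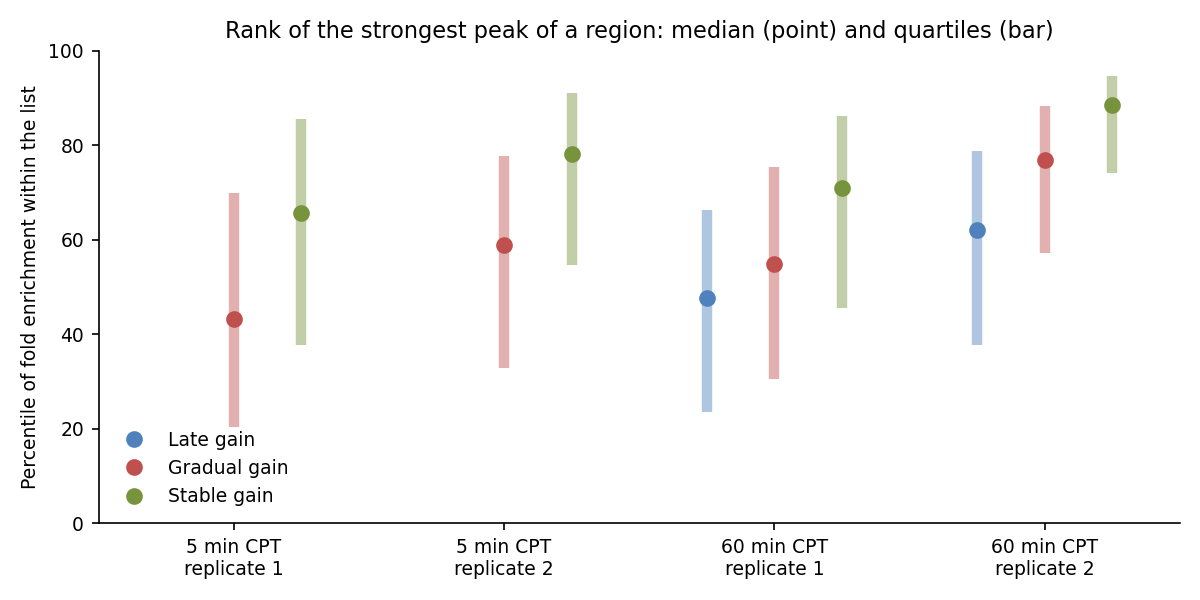
Percentile of fold enrichment within each DRIP list for the strongest peak of a region, as median (point) and quartiles (bar), in late, gradual and stable gains; a group is drawn only in lists where it has peaks. At 60 min in replicate 2 the medians are 62.0, 76.9 and 88.6, and the quartile bars of neighbouring groups overlap.

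Within 1 replicate the same region can be followed from 5 to 60 min. In replicate 2, the 2367 regions had a strongest peak of 490 bp (median) at 5 min and 1331 bp at 60 min, with a median ratio of 2.19, and 81.2% were wider at 60 min. Their percentile was higher at 60 min in 70.8%. In replicate 1, the 420 regions went from 515.5 to 493.5 bp, 44.05% were wider at 60 min, and 56.9% stood at a higher percentile. Over the whole lists the median peak width went from 464 to 550 bp in replicate 2 and from 543 to 490 bp in replicate 1. Widening with time was thus seen in the regions followed in replicate 2 and not in those followed in replicate 1. The 5 min peak overlapped a 60 min peak of both replicates in 2277 gradual gains (81.7%) and of 1 replicate in the other 510.

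The reach of the 60 min peaks beyond the 5 min peak had no net direction along the gene in the median. It was taken over the overlapping 60 min peaks of both replicates together. An end that drew back from the 5 min peak counted as 0, so shrinking could not be seen. For the 2087 gradual gains in 1 protein-coding gene, the 60 min peaks reached a median of 243 bp beyond the 5 min peak downstream and 222 bp upstream. The net extension, downstream minus upstream, had a median of 0 bp (95% interval 0 to 5), with 48.4% of regions above 0, 44.8% below and 6.85% at 0. In 41.9% the 60 min peaks reached past the 5 min peak in both directions. With the 5 min peak in replicate 1 the medians were 189 bp downstream and 243 bp upstream. Within that replicate the strongest peak did not widen in the median. With only the 60 min peaks of the replicate that held the 5 min peak, the median net extension was also 0 bp.

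Many edges of the regions fell on restriction sites. DRIP resolves hybrids only to the restriction fragment, and the DNA had been cut with 5 enzymes. At least 1 edge lay within 5 bp of a site in 75.2% of gradual gains and both edges in 16.2%, against 67.6% and 9.40% of late gains and 83.3% and 29.2% of stable gains. A single fragment held 27.1% of gradual gains. The 5 min summit and the 60 min summit lay on the same fragment in 75.7 to 82.2% of them, depending on the replicates compared. At PELP1, for example, the 5 min peak of replicate 1 and both 60 min peaks began at the same base, 4602734 on chromosome 17.

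Most gradual gains lay in introns and towards gene starts. Promoters were taken as the 5′UTR with 10 kb upstream and terminators as the 3′UTR with 10 kb downstream, and each midpoint was given 1 position. Introns held 1421 of the 2787 (51.0%, 95% Wilson interval 49.1 to 52.8), promoters 745 (26.7%, 25.1 to 28.4), terminators 351 (12.6%), exons 85 (3.05%) and intergenic DNA 185 (6.64%). Over all regions the shares were 44.3% for introns, 23.4% for promoters, 15.8% for terminators and 13.1% for intergenic DNA. Introns held 54.4% of late and 48.6% of stable gains, promoters 23.6% and 28.8%, and intergenic DNA 4.88% and 7.90%. The intron share above that of all regions was thus common to all 3 kinds of gain. These shares depend on the annotation: with all GENCODE gene types the promoter share was 49.4% and the intron share 30.2%, and with any overlap in place of the midpoint the terminator share was 24.7%.

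The distance from the gene start differed among the 3 kinds of gain. Gradual gains in 1 gene lay at a median of 7537 bp from its start, late gains at 8586 bp and stable gains at 4766 bp, against 10891 bp over all regions. Within 2 kb of the start lay 13.8% of gradual, 6.67% of late and 21.1% of stable gains, and 13.2% of all regions, so gradual gains were near the background there. In regions of 1000 to 2000 bp only, a width range chosen after the widths were seen, the shares were 16.6%, 6.09% and 23.6%, in the same order. The first 20% of the gene's length held 54.2% of gradual, 52.5% of late and 63.5% of stable gains in 1 gene. Over all regions it was 38.0%. The last 20% held 5.89%, 5.63% and 4.12%, against 14.6%, so the lean to gene starts was common to all 3 kinds of gain.

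**Figure D3:**
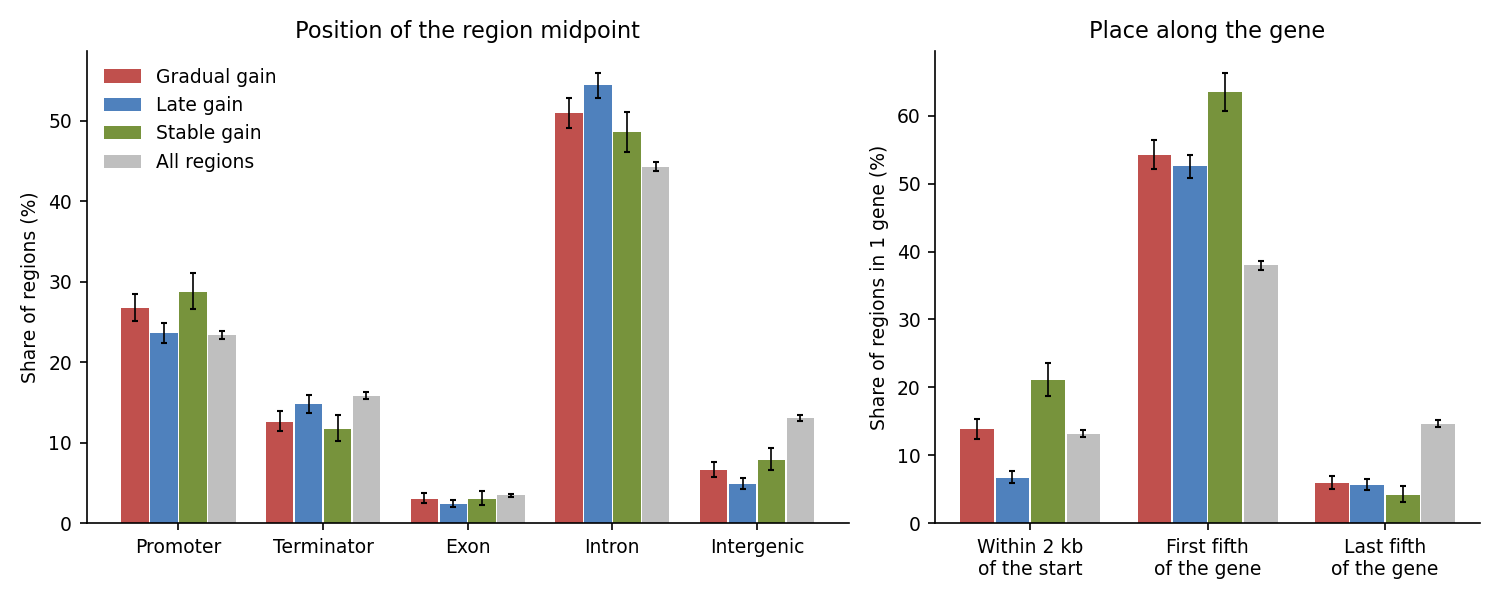
Share of regions by position of the midpoint (left, of all regions of a group) and by place along the gene (right, of regions in 1 protein-coding gene), for gradual, late and stable gains and all regions; error bars are 95% Wilson intervals, which cover counting error only. Gradual gains lie between late and stable gains in promoters (26.7%) and within 2 kb of the start (13.8%).

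The 2 kinds of gradual gain differed most outside genes. Of those with the 5 min peak in replicate 1, 18.1% (14.7 to 22.1) were intergenic and 84 of 420 lay at promoters. Of those with it in replicate 2, 4.60% (3.83 to 5.53) were intergenic and 27.9% at promoters. Intron shares were 50.2% and 51.1%. Since the kind is decided by the replicate, a difference between the libraries and a difference between the regions cannot be told apart.

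The median GC content of gradual gains was 44.8% (95% interval 44.5 to 45.1), against 45.9% in late gains, 44.1% in stable gains, 53.3% in no change regions and 49.0% over all regions. Among regions of 1000 to 2000 bp it was 44.7% in gradual gains, 43.1% (40.7 to 45.9) in no change regions and 48.1% over all regions, so the gap to the no change regions was not seen at equal width. On the coding strand G exceeded C in 62.6% of gradual gains, 63.0% of late and 69.1% of stable gains, against 72.2% of no change regions and 65.1% over all regions. The observed over expected ratio of CpG had a median of 0.298, near the 0.300 of all regions. An excess of G on the strand of the RNA, known to favour R-loops, was thus no more frequent in gradual gains than over all regions.

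GGGATTACA is a 9-letter word of the Alu repeat family, read on the strand opposite to its consensus. It was searched on both strands after it had been seen in some of these regions. It was more frequent per kb in all gained regions than over all regions, and in equal windows only in gradual and late gains. It occurred 0.835 times per kb in gradual gains, 0.890 in late and 0.711 in stable gains, against 0.529 in no change regions, 0.585 over all regions and 0.313 over the chromosomes that hold gradual gains. In windows of 300 bp around the 60 min summit, the same length for every region, it was found in 22.5% of gradual, 24.2% of late and 17.6% of stable gains, 12.3% of no change regions and 17.9% of all regions with a 60 min peak in replicate 2. On genes, 59.0% of its matches in gradual gains were on the coding strand, against 58.5% in late gains, 60.4% in stable gains and 55.5% over all regions. The letters are a description of the DNA, and reads from repeats can be placed wrongly, a part that was not tested.

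Within 10 kb, 29.4% of gradual gains had a late gain, 27.7% another gradual gain, 15.7% a stable gain and 19.6% a no change region. For late gains the shares with a late and with a gradual gain nearby were 37.2% and 21.8%, and for stable gains 29.4% and 26.0%, so such neighbours were common to all 3 kinds. Per Mb they were most frequent on chromosome 19 (1.84), 17 (1.70) and 22 (1.60) and least on X (0.303) and 13 (0.417). This follows where all 60 min gains lie: gradual gains made up 29.9% of them on chromosome 19, 30.1% on 17 and 34.8% on 13.

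The rule did not use the RNase H lists. They come from the same digested DNA of each replicate as the DRIP lists and are therefore no independent support for the order of the gains, and they differed between the replicates. In replicate 1, gradual gains were met by an RNase H peak in 0.0359% (NT), 0.897% (5 min) and 1.90% (60 min) of cases. In replicate 2 the shares were 2.08%, 39.6% and 79.8%. Over all regions they were 0.386%, 2.98% and 2.78% in replicate 1 and 13.2%, 43.3% and 65.3% in replicate 2, so the contrast between the replicates was one of the lists as a whole. Most gradual gains thus still carried a peak after RNase H digestion in replicate 2 at 60 min, and very few did in replicate 1. In all, 2328 (83.5%) met a peak of at least 1 of the 6 RNase H lists, against 73.4% of all regions, and 459 met none. The list of replicate 2 at 60 min held 67188 peaks, nearly as many as the 72879 of its DRIP list.

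The mean share met at 60 min was 40.8% ± 55.1 (SD, n = 2 libraries) and in NT 1.06% ± 1.45, a difference of 39.8 points, with 1.87 points in replicate 1 and 77.7 in replicate 2. By exact permutation (two-sided) p was 0.667, where the smallest value that 2 libraries against 2 can give is 0.3333. The rise from NT to 60 min was seen in both replicates but was smaller than the spread between them. Over all regions the rise was 2.40 points in replicate 1 and 52.2 in replicate 2. At 5 min the difference from NT was 19.2 points (exact permutation test, p = 0.667).

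In replicate 2 the RNase H peaks followed the same order as the DRIP peaks. At 5 min they met 16.4% of late, 39.6% of gradual and 66.2% of stable gains, and at 60 min 65.5%, 79.8% and 91.3%. In regions of 1000 to 2000 bp the 5 min shares were 17.4%, 38.2% and 58.3%. In windows of 300 bp around the 60 min summit they were 12.1%, 29.8% and 48.8%. The order therefore held at equal width and in equal windows. Of the 420 gradual gains with no DRIP peak in replicate 2 at 5 min, 105 met a peak of the RNase H library of that replicate and time. How complete the digestion was in replicate 2 was not tested.

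**Figure D4:**
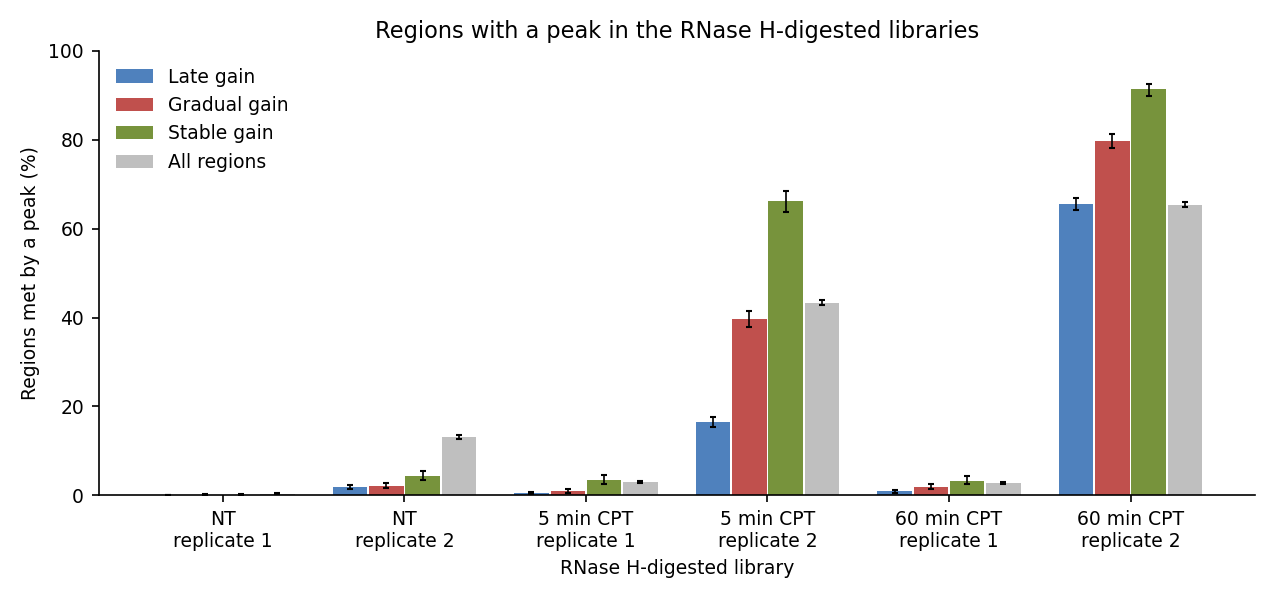
Share of late, gradual and stable gains and of all regions met by at least 1 peak of each RNase H-digested library, in percent, with 95% Wilson intervals for counting error. Replicate 1 stays at or below 3.42% in all 3 kinds of gain, while replicate 2 reaches 79.8% of gradual gains at 60 min.

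Among the gradual gains with the 5 min peak in replicate 1, the one in RBFOX2, a regulator of alternative splicing, ranked highest in its weakest list. It spanned chr22:36412884-36417825 in an intron, with fold enrichments of 7.62 at 5 min in replicate 1, 8.54 at 60 min in replicate 1 and 9.90 at 60 min in replicate 2, all at or above the 95.3rd percentile. A peak of 594 bp at 5 min lay inside a 60 min peak of 4942 bp in replicate 2, where replicate 1 had 3 separate peaks. The next was PELP1, a coregulator of nuclear receptors (chr17:4602734-4604207, intron), with 5.69, 6.27 and 7.81 in the same lists. These regions were strong in all 3 lists that carried them and had no peak in replicate 2 at 5 min.

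The other 6 named in this group were at MRPL13, a mitochondrial ribosomal protein, the Mediator subunit MED18 (13462 bp from the midpoint of the region, which is intergenic), CNOT11 of the CCR4-NOT deadenylase, CNNM3 of a family of magnesium transport proteins, the cap-binding protein EIF4E2, and the histone methyltransferase SETD2. Their lowest percentiles ran from 84.4 (MRPL13) down to 78.0 (SETD2). At CNNM3 (chr2:97482792-97488640) the fold enrichments were 5.23 at 5 min in replicate 1, 5.60 at 60 min in replicate 1 and 14.0 at 60 min in replicate 2. At SETD2 (chr3:47199635-47202390) the midpoint lay 4590 bp from the gene start, with 5.00, 6.07 and 6.52.

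Among those with the 5 min peak in replicate 2, the strongest had its midpoint 243 bp from NDUFS5, a subunit of respiratory complex I (chr1:39490012-39493482). Its fold enrichments were 7.34 at 5 min in replicate 2, 8.95 at 60 min in replicate 1 and 8.96 at 60 min in replicate 2. TAF2, a TFIID subunit (chr8:120825854-120827289), had 8.27, 9.40 and 8.71. In both, all 3 peaks ranked at or above the 93.2nd percentile of their lists.

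CUL3, the scaffold of a ubiquitin ligase (chr2:225447700-225448416), had 8.83 at 5 min and 12.4 at 60 min in replicate 2, and 6.98 at 60 min in replicate 1. SREK1, a splicing regulator (chr5:65447450-65449581), had 10.0 and 14.8 in replicate 2 and 6.94 in replicate 1. The SREK1 peak of replicate 2 covered the same 2132 bp at 5 and 60 min, and its RNase H peak at 60 min had the same ends. At the homeobox gene ONECUT2 (chr18:55122897-55123517) the values were 6.68 at 5 min, 9.90 at 60 min in replicate 1 and 10.2 in replicate 2. Within replicate 2 these peaks ranked higher at 60 than at 5 min, while the 60 min peak of replicate 1 ranked below the 5 min peak at CUL3 (91.4th against 96.2nd percentile) and SREK1 (91.0th against 97.5th).

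The remaining 7 of this group were at ATP6V1E1 of the vacuolar proton pump, the myosin light chain MYL12B, SPRY4, an inhibitor of receptor tyrosine kinase signalling, the ATP synthase subunit ATP5F1C, ECT2, which acts in cytokinesis, CACUL1, and the glutathione transferase GSTO1. Their lowest percentiles ran from 90.7 (ATP6V1E1) down to 88.2 (GSTO1). In replicate 2 the strongest peak at ATP6V1E1 measured 550 bp at 5 min and 5681 bp at 60 min, and that at CACUL1 647 and 6510 bp. Each of the 20 strongest regions named here met a peak of at least 1 RNase H list, against 83.5% of gradual gains and 73.4% of all regions.

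**Figure D5:**
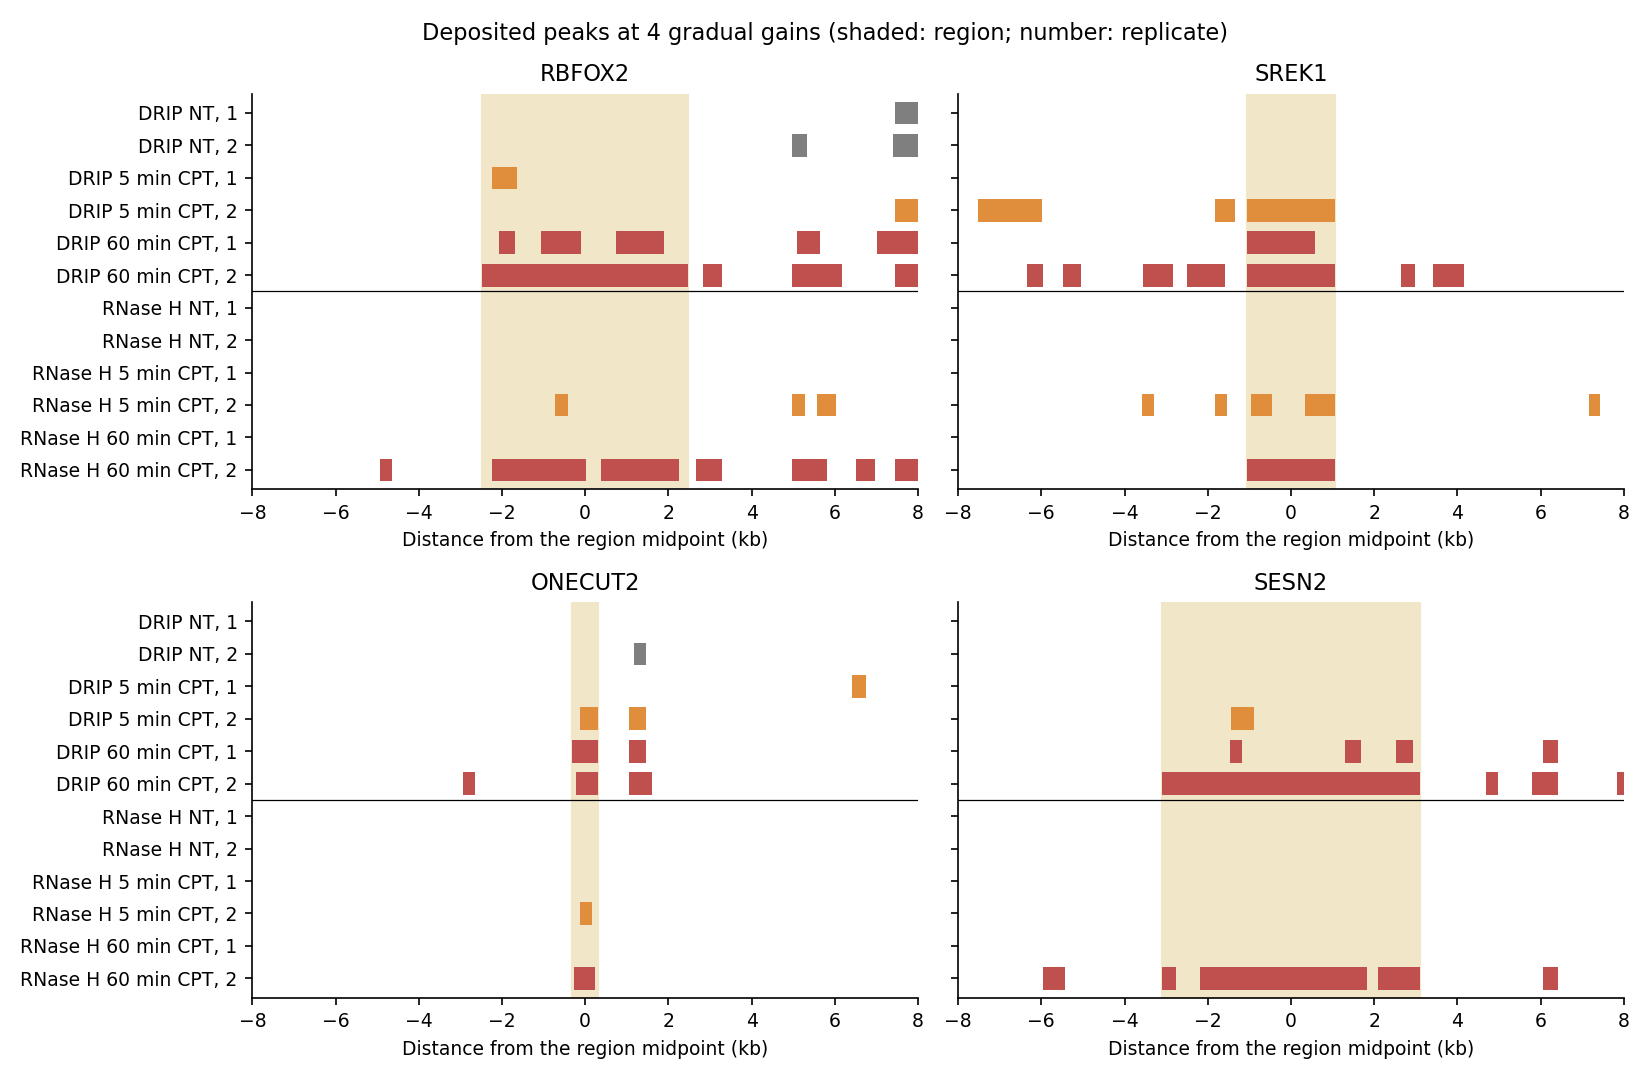
Deposited peaks of the 12 lists at the gradual gains of RBFOX2, SREK1, ONECUT2 and SESN2, as distance in kb from the region midpoint; the shaded band is the region, bars are peaks, grey for NT, orange for 5 min and red for 60 min CPT, and the line separates DRIP from RNase H libraries. In each region the NT rows are empty, 1 row of 5 min has a peak, both rows of 60 min have peaks, and the RNase H peaks lie in replicate 2.

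SESN2, a stress-responsive target of p53, showed the widest change among the loci looked up by name. Its region (chr1:28586250-28592434) held 1 peak of 556 bp at 5 min in replicate 2, with a fold enrichment of 3.27 (18.5th percentile). At 60 min the values were 4.83 (66.1st percentile) in replicate 1, where 3 peaks were called, and 11.96 (97.4th) in replicate 2, in 1 peak of 6185 bp. A weak and narrow peak at 5 min was thus followed by one of the strongest of its list. The RNase H library of replicate 2 at 60 min also had peaks in this region, the strongest at the 95.9th percentile of its own list. YWHAG, which codes for a 14-3-3 protein, held 2 gradual gains and FAM3C, which codes for a secreted protein, held 1, while SF3B3 held 0. At FAM3C (chr7:121028507-121034734) the rank in replicate 2 went the other way, from the 92.2nd percentile at 5 min to the 69.4th at 60 min, although the strongest peak widened from 915 to 6228 bp. At YWHAG, the stronger region (chr7:75977382-75979964) had 4.82 at 5 min in replicate 2, then 7.47 and 7.94 at 60 min.

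Of 20163 protein-coding genes, 3052 had a gradual gain in the gene or within 10 kb, which is 15.1%. Most genes held few: 1840 had 1 region in the gene body, 319 had 2, 55 had 3, 8 had 4 and 1 had 5. SYTL3, a synaptotagmin-like protein of vesicle traffic, held the 5, all with the 5 min peak in replicate 2, and no late or stable gain. CHAF1B, a subunit of chromatin assembly factor 1, held 4, in equal parts from both replicates. EIF3H, EP400 and KDM3B, a translation factor, a chromatin remodeller and a histone demethylase, also held 4 each.

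Gene lists were read against both backgrounds, all genes and the 12544 genes with any of the 28518 regions in or near them, of which 24.3% had a gradual gain. A region in a list gene or within 10 kb of it was counted, so it can lie in a neighbouring gene. Genes for hnRNPs, which package and splice nascent RNA, had one in 16 of 26 (61.5%), and late gains and stable gains were at 8 each (30.8%). The shares of genes with any region were 34.3% with a late gain, 14.7% with a stable gain and 40.3% with a no change region, and 20 of the 26 hnRNP genes had a no change region. HNRNPC (chr14:21730880-21732603) had fold enrichments of 7.42 at 5 min in replicate 2, 6.40 at 60 min in replicate 1 and 7.69 at 60 min in replicate 2. PCBP2, HNRNPA3 and HNRNPUL1 were the next by rank, and the gene nearest to the midpoint of the PCBP2 region was PRR13, 334 bp away. Of SR splicing factor genes, 7 of 14 had a gradual gain and 9 of 14 a late gain. At SRSF3 and TRA2B the 5 min peak ranked above both 60 min peaks, with 7.05 against 4.15 and 5.16 at SRSF3 (chr6:36572368-36575441) and 8.16 against 3.86 and 4.37 at TRA2B (chr3:185650391-185651531). A gain called gradual from presence is thus not always stronger at 60 min.

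Translation factor genes had a gradual gain in 19 of 40 (47.5%), with EIF3L, EIF3A, EIF4H and EIF3C as the highest by rank, and reads of EIF3C are uncertain because a near-identical copy lies nearby. Heat shock protein and chaperonin genes had one in 14 of 32 (43.8%), led by HSPA9, TCP1, CCT6A and CCT2. RNase H and R-loop helicase genes had one in 13 of 28 (46.4%), against 8 with a late and 4 with a stable gain. DHX9, a helicase that unwinds RNA and hybrids (chr1:182814824-182816285), had 4.59 at 5 min in replicate 2, 5.28 at 60 min in replicate 1 and 9.07 at 60 min in replicate 2. DDX19A, WRN and DDX21 followed by rank. Of list genes with any region, a gradual gain was at 61.5% of hnRNP, 58.3% of SR and 48.7% of translation factor genes. For the heat shock, R-loop helicase and topoisomerase lists the shares were 51.9%, 48.1% and 40.0%. These stood above the 24.3% of genes with any region, as a description with no test. This was not particular to gradual gains: of list genes with any region, stable gains were at 35.9% of translation factor, 40.7% of heat shock and 30.8% of hnRNP genes, against 14.7%. No change regions were at 76.9% of hnRNP, 64.1% of translation factor and 55.6% of R-loop helicase genes, against 40.3%. They were at 58.3% of SR genes, but at 33.3% of heat shock and 26.7% of topoisomerase genes.

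The list of topoisomerase and TDP genes also takes in related genes that are neither, such as PARP1 and TOPORS. In it, 6 of 15 (40.0%) had a gradual gain: PARP1, TDP1, TDP2, TOP1, TOP2A and TOPORS, of which TDP1 and TOPORS are named after their values were seen. TOP1, the target of CPT, held one in an intron, with the midpoint 8200 bp from the gene start (chr20:39665120-39666204). Its fold enrichments were 4.81 at 5 min in replicate 2, 5.34 at 60 min in replicate 1 and 7.39 at 60 min in replicate 2. TDP1, which removes trapped Top1 from DNA ends, and TDP2, which acts on Top2, were both in the list. At TDP2 (chr6:24666083-24667933) the midpoint lay 150 bp from the gene start, with 4.82, 6.10 and 6.05, and no RNase H list had a peak there.

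The p53, immediate early and elongation lists were nearer the background. Of p53 target genes, 8 of 30 (26.7%) had a gradual gain, and 13 of 30 had a late gain. Those highest by rank were in or within 10 kb of CCNG1, XPC, TRIAP1 and PPM1D. The CCNG1, XPC and TRIAP1 regions had their midpoints in the neighbouring genes NUDCD2, LSM3 and GATC. The PPM1D region (chr17:58676503-58679453) lay in PPM1D and had 4.07, 4.35 and 6.56. Of immediate early genes, 4 of 33 (12.1%) had one: DUSP6, KLF2, DUSP5 and CCN1. The CCN1 region had its midpoint in the neighbouring gene DDAH1. At DUSP5 (chr10:112263323-112266346), a phosphatase gene, the 5 min peak of replicate 2 ranked above both 60 min peaks, with 10.9 (98.1st percentile) against 3.49 (15.8th) and 5.18 (72.5th). That 5 min peak was 7067 bp wide and ran on to 112271491, past the end of the region. Its fold enrichment may thus come from outside the region, where 60 min peaks were not compared. Genes of RNA polymerase II elongation had one in 8 of 32, with SUPT16H, CCNT2 and CDK13 among the highest by rank. SUPT16H, a subunit of the histone chaperone FACT (chr14:21849555-21851927), had 7.26, 6.23 and 11.4. The list members whose fold enrichments are given here all had their 5 min peak in replicate 2.

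Calls near the threshold decided part of the group. The lowest −log10 q of a deciding peak was 1.301 at KCNMA1 and 1.32 at MAPKAPK5, MLXIP and ZNF507. Just outside the rule lay MCPH1 and USP22, where the weaker of both 5 min peaks had 1.301 and 1.32, and CRTC3 and C3orf52, where the single NT peak had 1.3015 and 1.31. A −log10 q under 2 in at least 1 deciding list was found in 531 gradual gains, and 1264 had at least 3 in all lists that carried them. A further 1674 regions would have been gradual gains but for 1 NT peak.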

How the data were processed

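DRIP-seq peak lists of HCT116 cells were used, 6 from DRIP and 6 from RNase H-digested libraries. The authors trimmed and aligned reads to hg19, removed duplicates and blacklisted regions, and ran MACS2 on each library separately with its input as control. They then selected regions by comparing DRIP with RNase H libraries, and tested normalised read counts of each treatment against NT. These last steps were not repeated here. The deposited fold enrichment of a peak is the ratio of its summit to input. Summits also carry deposited −log10 p and −log10 q values, which rank peaks within 1 list. The lists hold no counts and no spike-in scaling, and the calling threshold is not given in the sources used here.

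Regions were built as described in the report. The members, gene lists and named genes were chosen with earlier results of these data known. Named were the 8 members with the 5 min peak in replicate 1 and the 12 with it in replicate 2 whose lowest percentile was highest, the 5 genes with most members, up to 4 genes of each list, 4 loci (SESN2, SF3B3, YWHAG and FAM3C), and 4 regions on each side of the rule. Positions came from GENCODE release 44 lifted to GRCh37 (20163 protein-coding genes), and sequence from the GRCh37 assembly. Some named genes and sequences under this rule are not reported here. Shares carry 95% Wilson intervals and medians binomial intervals of the order statistics. Regions are not replicates, so no test was run over them, and the RNase H shares were compared over libraries with exact permutation tests. Samples were grouped by their labels. Alternatives were a stricter −log10 q, lists of equal length, wider merging, stricter overlap, other chromosomes, gene types and windows, and leaving out single replicates. Scripts were first tested on simulated data. Python 3.11.15, NumPy 2.4.6, pandas 2.3.3, SciPy 1.17.1, pysam 0.24.0 and Matplotlib 3.10.9 were used.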

Additional observations from a re-analysis of the deposited data

How the results depend on the processing

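The number of gradual gains was 2787, and it was 1587 with DRIP lists of equal length and 459 without regions met by an RNase H peak. It was 3093 without NT replicate 1 and 4155 without NT replicate 2, and leaving out 1 replicate of 60 min changed nothing (2787), since every such region is built from peaks shared by both 60 min lists. The median width was 1775 bp at a −log10 q of at least 3, 1916 bp with lists of equal length, 1464 bp after merging of peaks up to 1000 bp apart, 790 bp without regions met by RNase H peaks, and 1324 to 1487 bp with 1 replicate left out. The share with the 5 min peak in replicate 2 was 86.7% at the stricter −log10 q, 75.4% with equal lists, 77.8% without RNase H regions, 86.7% among members of 1000 to 2000 bp (chosen after seeing the data), and 83.1 to 86.7% with 1 replicate left out. The promoter share was 30.2% with equal lists, 36.4% by any overlap, 49.4% with all gene types, 31.4% at 1000 to 2000 bp, and 25.8 to 29.5% with 1 replicate left out. The terminator share was 11.4% after wider merging, 24.7% by any overlap and 15.0% with all gene types. The intron share was 47.5% without RNase H regions, 37.3% by any overlap, 30.2% with all gene types, and 47.1 to 51.0% with 1 replicate left out. The median GC content was 44.4% after wider merging, 44.3% in 300 bp around the summit, and 44.6 to 46.6% with 1 replicate left out. The net extension was 0 bp in all 13 alternatives run. In these alternatives the cause was not tested.

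The difference in RNase H share between 60 min and NT was 0 points with RNase H lists of 473 peaks each, which can meet almost no region and so say nothing on list length, and 1.87 to 77.7 points with 1 replicate left out. With the replicate number as a block it was 39.8 points (exact sign permutation, p = 0.5, the smallest p that 2 pairs allow). The pairing by number could not be checked with so few libraries. Leaving out the regions met by RNase H peaks gives no such difference. All other alternatives gave the same direction with an exact permutation p no lower than 0.3333.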
